A study of Mus musculus with 2 samples.

Results

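Endothelial cells, the cells that line blood and lymph vessels, were picked out of single-cell RNA sequencing (scRNAseq) libraries of the rib callus of adult mice at 4 days post injury (dpi). Cells were chosen by their own counts: 200 or more genes detected, less than 10% of unique molecular identifiers (UMIs, each standing for 1 captured transcript) from mitochondrial genes, 0 UMIs of *Ptprc*, the pan-leukocyte gene for CD45, and at least 3 UMIs summed over *Pecam1*, *Cdh5* and *Cldn5*, which encode the junction proteins PECAM-1, VE-cadherin and claudin-5. This selected 153 of the 21259 cells deposited, 72 from the control library and 81 from the *Smo* cKO library. Because these genes chose the cells, their levels are given as a description only.

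The study asked how callus cells differ when *Smo*, the receptor-like transducer of Hedgehog signaling, is deleted in cells of the *Sox9* lineage. The deletion was induced before a 3 mm segment of rib was removed. All animals carried *Sox9*:CreER and *R26*:tdTomato, with *Smo* flox/+ in the control and *Smo* flox/flox in the cKO, so the control also had the Cre driver, the reporter and 1 floxed allele. Mice of both sexes, 8 to 12 weeks old, received 3 tamoxifen injections in the week before resection, and callus tissue of 3 animals was pooled into 1 library for each genotype. CreER follows *Sox9*, a gene of skeletal progenitors, so *Smo* cKO here names the animals' genotype and not a loss of *Smo* in endothelial cells. With 1 library for each genotype, the genotype, the pool of animals and the library cannot be told apart.

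Endothelium is divided into arterial, capillary and venous blood vessels, with migrating tip cells at the front of new sprouts, and a separate lymphatic branch that is held in its identity by the transcription factor PROX1. Venous and postcapillary cells carry the selectins that slow passing leukocytes, and lymphatic cells secrete CCL21, the chemokine that draws dendritic cells and lymphocytes into lymph vessels. Interferons bind cell-surface receptors, and the transcription factors they activate then bind interferon-stimulated response elements (ISREs) in front of a large set of antiviral genes, which many cell types can switch on.

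The control library held 10747 barcodes and 105367110 UMIs, and the *Smo* cKO library held 10512 barcodes and 112700220 UMIs. Endothelial cells made up 0.716% (exact 95% interval 0.561 to 0.901) of the 10057 control cells that passed the gene and mitochondrial limits. In *Smo* cKO they made up 0.852% (0.677 to 1.06) of 9507 cells, so the intervals overlapped. Their median depth was 10212 UMIs in the control library (548 to 49943) and 11193 UMIs in the *Smo* cKO library (1808 to 64889), with medians of 2988 and 3088 genes. At the threshold, 7 control and 9 *Smo* cKO cells sat just inside with exactly 3 UMIs of the selecting genes, and 16 and 14 cells sat just outside with 2. Intervals throughout cover counting error only, since no animal or library was repeated, and no test between genotypes was possible.

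The label was checked on 30 pan-endothelial genes that did not take part in the selection. Of these, 29 were highest in the chosen cells when set beside mural, connective and hematopoietic cells picked by their own genes and by 0 UMIs of the selecting endothelial genes, and 21 were over 10-fold higher there than in any of those classes. *Egfl7*, a protein that endothelial cells secrete into their matrix, stood at 598 CPM (the gene's UMIs summed over cells, divided by all UMIs of those cells and multiplied by 1000000) in the chosen cells and at 5.94 CPM in connective cells. *Fabp4*, a fatty acid carrier of capillary endothelium, stood at 990 CPM and at 235 CPM in mural cells, the next highest class.

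The floxed gene was too sparse to check the genotype here. *Smo* (chr6:29735503-29761365, plus strand, GRCm38) had 12 UMIs in control (13.2 CPM) and 17 UMIs in *Smo* cKO endothelial cells (14.1 CPM). The *TdTomato* reporter had 1 UMI in 1 cell of each library. In connective cells the reporter was seen in 49 of 5990 control and 120 of 5136 *Smo* cKO cells, so the reporter transcript was rare even there. The endothelial cells gave no count from which recombination could be read.

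Some cell barcodes occurred in both libraries and are described before the results that include them. There were 613 such barcodes, with a median of 842 UMIs in the control library and 30516 UMIs in the *Smo* cKO library, and 493 of them differed over 10-fold in UMIs. Among endothelial cells, 6 control and 10 *Smo* cKO cells carried one, and 3 barcodes were endothelial in both libraries. In one of these pairs the control barcode held 1115 UMIs and its *Smo* cKO partner 64028, and in another 548 and 32009, and all 4 cells fell in the same, lymphatic-like, cluster. In the third pair the control barcode held 21574 UMIs and fell in the cluster that is left unnamed here, and its partner held 47565 and was lymphatic-like. What made the libraries share barcodes was not tested, and values without these cells are given beside the main results.

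Clustering of the 153 cells gave 3 groups, drawn in the plot of the first 2 principal components. The first, called blood-vessel-like from its markers, held 50% (38.0 to 62.0) of the control cells, or 36 of 72, and 39.5% (28.8 to 51.0) of the *Smo* cKO cells, or 32 of 81. The second, lymphatic-like, held 31.9% (21.4 to 44.0) of the control cells, or 23, and 39.5% (28.8 to 51.0) of the *Smo* cKO cells, or 32. The third held 13 (18.1%) and 17 cells (21.0%) and was left unnamed. The third cluster's shares changed order without shared barcodes, to 18.2% of control and 16.9% of *Smo* cKO cells. For each cluster the intervals of the libraries overlapped, and the clusters were made of the same cells when the vessel subtype genes were kept out of the clustering.

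**Figure D1:**
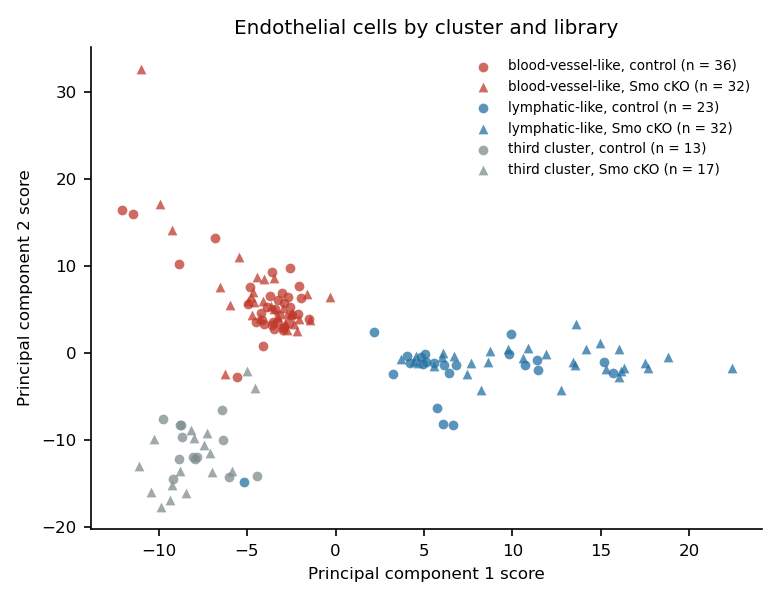
Scores of the 153 endothelial cells on principal components 1 and 2 of their log-normalized counts (no unit); each point is 1 cell, circles are control and triangles *Smo* cKO, and color gives the cluster. Along the first component the 68 blood-vessel-like cells lie below 0 and the 55 lymphatic-like cells above 0, apart from 1 control lymphatic-like cell below 0, and cells of both libraries occur in every cluster.

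Blood-vessel-like cells were led by genes of capillary and sprouting endothelium. The clusters were built from these genes, so their levels describe the clusters and test nothing. *Fabp4* stood at 2070 CPM against 206 CPM in the other endothelial cells, and *Igfbp3*, an insulin-like growth factor carrier, at 951 CPM against 46.5 CPM. *Gpihbp1*, which anchors lipoprotein lipase on capillaries, *Apln*, the tip cell peptide apelin, and *Esm1*, a proteoglycan of sprouting tip cells, were also among the 10 leading genes. *Flt1*, the decoy receptor for VEGF on blood endothelium, had 314 UMIs here and 0 in lymphatic-like cells, and *Sox17*, an arterial transcription factor, had 73 and 0. *Gja5*, the connexin of mature arteries, had 1 UMI in blood-vessel-like cells.

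Lymphatic-like cells were led by *Ccl21a*, at 10045 CPM against 83.6 CPM in the other endothelial cells. *Prox1* (chr1:190118035-190170714, minus strand, GRCm38) stood at 298 CPM against 5.31 CPM, and *Mmrn1*, a secreted multimerin of lymphatic endothelium, at 521 CPM against 5.31 CPM. *Nts*, the peptide neurotensin, *Reln*, the matrix protein reelin, and *Lyve1*, the hyaluronan receptor, were also among the leading genes. *Stab2*, *Clec4g* and *Cd209b*, genes of liver and marrow sinusoids, had 0 UMIs in all 153 cells, while *Lyve1* and *Stab1*, which sinusoids share with lymphatics, were present. *Cldn5*, one of the selecting genes, stood at 966 CPM here and 73.0 CPM in the other endothelial cells, and it gave 56.4% of the selecting UMIs in lymphatic-like cells.

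The third cluster had lower levels of endothelial genes and carried genes of other cells. Its leading genes were *Rgs5*, a pericyte gene, and *Prg4*, *Aspn*, *Ogn*, *Col3a1*, *Col1a1* and *Postn*, genes of fibroblasts and matrix-forming cells, with *Acta1*, the skeletal muscle actin, of which 185 of 199 *Smo* cKO UMIs came from 1 cell. *Col1a1* stood at 7590 CPM, against 548 CPM in blood-vessel-like and 528 CPM in lymphatic-like cells. Its median for the pan-endothelial genes that took no part in the selection was 16.9 UMIs per 10000 in control and 20.5 in *Smo* cKO cells, against 39.3 and 41.8 in lymphatic-like and 91.8 and 102 in blood-vessel-like cells. Its cells were also deeper, with medians of 13916 and 21418 UMIs. Droplets holding more than 1 cell were not removed, because a doublet caller marked 0 of 10057 and 4 of 9507 cells and so had not worked, and whether the third cluster holds such droplets was not tested.

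**Figure D2:**
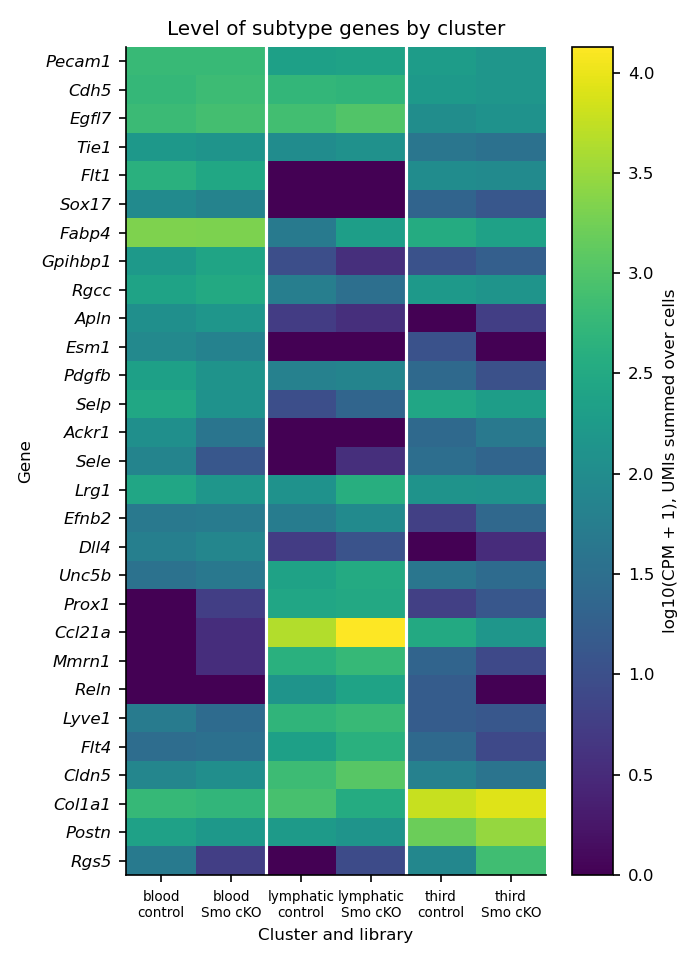
Heat map of log10(CPM + 1) for 29 vessel, lymphatic and matrix genes (rows) in the 3 clusters of each library (columns), from UMIs summed over cells. *Ccl21a*, *Prox1* and *Reln* are bright in the lymphatic-like columns, *Flt1*, *Sox17* and *Ackr1* are at 0 there, and *Col1a1* and *Postn* are highest in the third cluster.

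Within the blood-vessel-like cells a set of 24 cells with venous and postcapillary genes separated when 10 principal components were used, a setting chosen after the data were seen, and did not separate with 20. In these cells *Selp*, the P-selectin that tethers leukocytes, stood at 943 CPM against 26.8 CPM in the other 44 blood-vessel-like cells. *Ackr1*, the chemokine-binding receptor of venules, stood at 351 CPM against 8.47 CPM, and *Vwf*, von Willebrand factor, at 236 CPM against 7.06 CPM. The other 44 cells carried the sprouting and cycling genes, with *Apln* at 158 CPM against 16.5 CPM in the venous set and *Esm1* at 94.6 CPM against 5.48 CPM. *Mki67*, the proliferation antigen, had 41 UMIs in those 44 cells and 0 in the 24 venous-like cells. Arterial genes formed no cluster of their own.

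The comparison of genotypes asked which genes were higher or lower in *Smo* cKO than in control endothelial cells, as the log2 ratio of CPM (positive where *Smo* cKO is higher) with an exact 95% interval for the ratio of Poisson counts. Of 7911 genes with at least 20 UMIs over both libraries, 369 (4.66%) had a 2-fold or greater excess in *Smo* cKO cells and 153 (1.93%) in control cells. The median over these genes was -0.00, so the libraries were centered alike. Among blood-vessel-like cells 3.67% of 4909 genes were 2-fold higher and 3.61% lower, and among lymphatic-like cells 5.71% of 4025 genes were higher and 3.78% lower. Among cells of the third cluster 7.74% of 3813 genes were higher and 3.57% lower. These shares are the background for the counts of listed genes that follow.

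Interferon-stimulated genes were higher in *Smo* cKO endothelial cells. Summed over 39 listed genes, their level was 1962 CPM in control (1787 UMIs) and 5376 CPM in *Smo* cKO cells (6486 UMIs), a log2 ratio of 1.45 (1.38 to 1.53). *Ifitm3*, a membrane protein that blocks virus entry and the most abundant gene of the list, made up 58.1% of these UMIs and had a log2 ratio of 0.95. Without *Ifitm3* the list went from 480 CPM to 2509 CPM, a log2 ratio of 2.39 (2.24 to 2.53). Of 31 listed genes with enough UMIs, 25 were at least 2-fold higher and 0 were 2-fold lower, beside 4.66% and 1.93% of all genes, and all 31 ratios were above 0. Their median log2 ratio was 2.40, with 5 genes that had 0 UMIs in the control library put at their lower bound, beside -0.00 over all genes.

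The same list was higher in other cells of these libraries, so the values are given side by side. Without *Ifitm3* its log2 ratio was 2.23 in mural cells (248 to 1167 CPM), 2.20 in connective cells (279 to 1284 CPM) and 2.02 in hematopoietic cells (795 to 3215 CPM). No test of a difference between these classes was possible. In each class named here the list was higher in the *Smo* cKO library. RNA released from other cells adds to counts in every droplet, and its part in these ratios was not tested.

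Promoters of some listed genes are shown because they carry the ISRE letters to which interferon-activated transcription factors bind. The motif searched was GAAANNGAAA or its reverse complement TTTCNNTTTC, on RefSeq windows of 300 bases (250 before to 50 after a gene start, GRCm38.p6). Of 28 listed genes with a window, 15 (53.6%) held the motif, against 1079 of 27025 genes (3.99%) overall. A match describes the sequence and is not evidence of binding. Each stretch below has 100 bases upstream of the start, 5′ to 3′ on the gene's strand, with overlapping matches joined in capitals.
Bst2, chr8:71537543-71537642, minus strand: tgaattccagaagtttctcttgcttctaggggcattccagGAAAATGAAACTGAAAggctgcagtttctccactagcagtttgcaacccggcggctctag
Isg15, chr4:156200837-156200936, minus strand: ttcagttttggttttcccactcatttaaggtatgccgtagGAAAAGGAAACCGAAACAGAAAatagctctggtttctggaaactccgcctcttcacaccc
Rsad2, chr12:26456513-26456612, minus strand: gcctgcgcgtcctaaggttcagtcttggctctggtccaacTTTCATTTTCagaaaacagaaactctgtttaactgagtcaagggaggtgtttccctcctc
Ifit1, chr19:34640745-34640844, plus strand: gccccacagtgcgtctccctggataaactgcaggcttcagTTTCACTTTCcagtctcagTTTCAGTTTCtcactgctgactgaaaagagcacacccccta

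The first matching base lay 130 bases before the start in *Bst2*, 78 in *Isg15*, 120 in *Rsad2* and 104 in *Ifit1*. *Isg15*, a ubiquitin-like protein that is attached to other proteins during antiviral defense, had 16 UMIs in 8 of 72 control cells and 300 UMIs in 50 of 81 *Smo* cKO cells. That is 17.6 and 249 CPM, a log2 ratio of 3.82 (3.10 to 4.65). *Bst2*, or tetherin, which holds budding virus at the cell surface, had 136 UMIs in 46 control cells and 601 UMIs in 76 *Smo* cKO cells, a log2 ratio of 1.74. *Ifit1*, which binds foreign RNA caps, had 3 and 52 UMIs, a log2 ratio of 3.71 (2.08 to 6.05). *Rsad2*, or viperin, had 6 and 122 UMIs, but 75 of the 122 came from 1 cell. *Isg15* and *Bst2* were thus spread over many *Smo* cKO cells, and *Rsad2* was not.

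Effectors, sensors and regulators of the pathway are described by role. *Irf7*, the factor that amplifies interferon production, had 6 and 75 UMIs, a log2 ratio of 3.24. *Irf9*, a DNA-binding factor of the response, had a log2 ratio of 1.76. *Stat2* had 9 and 17 UMIs, and the interval of its log2 ratio of 0.51 ran from -0.73 to 1.86 and so included 0. *Ifi44* had 0 UMIs in control cells and 60 UMIs in 34 *Smo* cKO cells, at least 15.1-fold higher at the floor of 3 UMIs over the control cells. *Oasl2* (0 and 47 UMIs) was at least 11.8-fold higher and *Usp18* (0 and 25 UMIs), which removes ISG15 from its targets, at least 6.29-fold higher on the same scale. *Ifih1*, a sensor of double-stranded RNA, had a ratio of 0.79 whose interval included 0. Members of the Ifit, Oas, Ifi27l2, Ifi200 and Phf11 families have near-identical copies, so the split of reads among copies is uncertain.

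**Figure D3:**
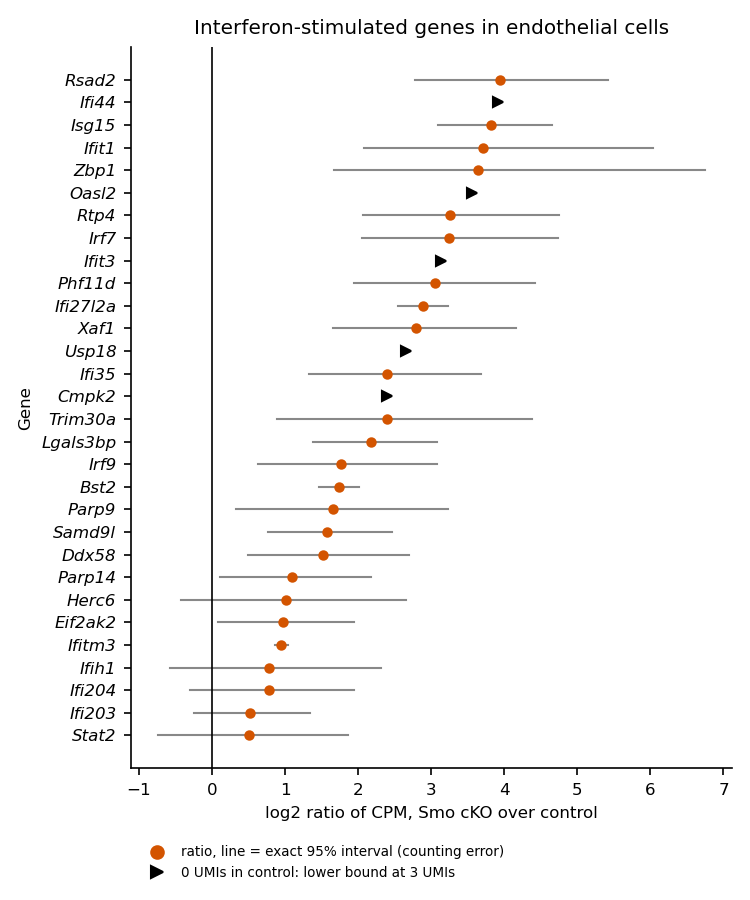
Log2 ratio of CPM, *Smo* cKO over control, for 30 interferon-stimulated genes with at least 20 UMIs in endothelial cells; points are ratios, lines exact 95% intervals for counting error, and triangles lower bounds for genes with 0 control UMIs. All 30 values drawn lie above 0, and the lines of 5 genes (*Stat2*, *Ifi203*, *Ifi204*, *Ifih1* and *Herc6*) cross it.

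The higher interferon list was present in each cluster. In blood-vessel-like cells without *Ifitm3* it was 372 CPM in control and 2044 CPM in *Smo* cKO cells, a log2 ratio of 2.46 (2.22 to 2.70), and with *Ifitm3* all 15 genes with enough UMIs were at least 2-fold higher, beside 3.67% of all genes. In lymphatic-like cells it was 813 and 4172 CPM, a log2 ratio of 2.36 (2.14 to 2.59), and 15 of 16 genes were 2-fold higher, beside 5.71% of all genes. In the third cluster it was 356 and 1451 CPM, a log2 ratio of 2.03. With *Ifitm3*, the log2 ratio was 1.49 in blood-vessel-like and 1.73 in lymphatic-like cells, and 1.51 and 1.93 when cells with shared barcodes were left out. It was lower in third-cluster cells, at 0.90 (0.73 to 1.06) with *Ifitm3* and shared barcodes included. Whether the clusters differ in this ratio was not tested.

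Cell by cell, the list without *Ifitm3* was spread over most *Smo* cKO cells and not held by a few. In blood-vessel-like cells the median was 3.71 UMIs per 10000 in control (0 to 11.3) and 18.9 in *Smo* cKO (0.964 to 118), and 30 of 32 *Smo* cKO cells lay above the control median. In lymphatic-like cells the median was 6.58 in control (0 to 36.5) and 42.2 in *Smo* cKO (4.17 to 204), with 31 of 32 above the control median. The groups overlapped, since 19 of 32 blood-vessel-like and 17 of 32 lymphatic-like *Smo* cKO cells exceeded the highest control cell of their cluster. The median number of listed genes detected was 3 in a control and 9 in a *Smo* cKO endothelial cell. The *Smo* cKO cell with the most UMIs of the list, 357 in a lymphatic-like cell, held 11.8% of the list's *Smo* cKO UMIs. Within the *Smo* cKO lymphatic-like cells it held 22.5% of the list's 1585 UMIs.

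**Figure D4:**
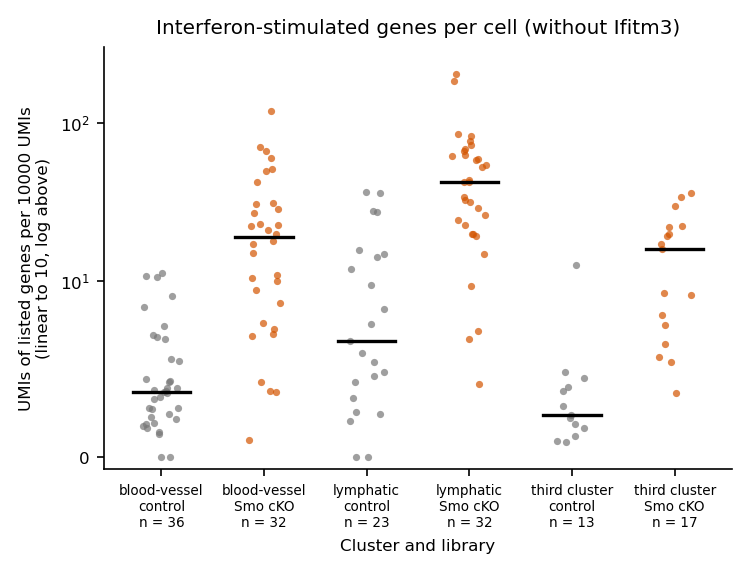
UMIs of the interferon-stimulated genes without *Ifitm3* per 10000 UMIs (vertical axis, linear to 10 and logarithmic above) in each endothelial cell, by cluster and library; points are cells and bars medians. The *Smo* cKO medians of 18.9 (blood-vessel-like) and 42.2 (lymphatic-like) lie above the control medians of 3.71 and 6.58, and the points overlap.

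The more abundant genes of the list are given by cluster. *Ifi27l2a*, a small mitochondrial protein induced by interferon, had 61 UMIs in control and 653 UMIs in *Smo* cKO lymphatic-like cells (265 and 1719 CPM), a log2 ratio of 2.70. In blood-vessel-like cells it had 8 and 41 UMIs (16.6 and 100.2 CPM), a log2 ratio of 2.59. *Isg15* had 3 and 79 UMIs in blood-vessel-like cells, a log2 ratio of 4.95 (3.35 to 7.26), and 12 and 165 UMIs in lymphatic-like cells, a log2 ratio of 3.06 (2.21 to 4.04). Without shared barcodes these were 4.82 and 3.22. *Bst2* had 73 and 268 UMIs in blood-vessel-like cells, a log2 ratio of 2.11, and 50 and 211 UMIs in lymphatic-like cells, a log2 ratio of 1.35.

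*Isg15* was also counted as a share of cells. It was detected in 11.1% of control and 61.7% of *Smo* cKO endothelial cells. In hematopoietic cells, with lower median depths of 4448.5 and 4357 UMIs, the shares were 9.78% and 41.8%, and in connective cells, with medians of 11647 and 14393 UMIs, 7.38% and 50.6%. After each cell was thinned to 2000 UMIs, *Isg15* was found in 3 of 67 control and 26 of 79 *Smo* cKO endothelial cells, or 4.48% and 32.9%. The thinned shares were 6.62% and 23.6% in hematopoietic and 1.93% and 19.6% in connective cells. The order of the libraries was the same in the 3 classes, with and without thinning.

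Genes of antigen presentation and of the interferon-gamma response were also higher. *B2m*, the shared light chain of class I molecules, went from 746 CPM in control (679 UMIs) to 1776 CPM in *Smo* cKO cells (2142 UMIs), a log2 ratio of 1.25, and *H2-K1*, a class I heavy chain, had a log2 ratio of 1.28. Of 13 class I genes with enough UMIs, 6 were at least 2-fold higher, 0 were 2-fold lower and all 13 were above 0, beside 4.66% and 1.93% of all genes. Of 8 interferon-gamma and guanylate-binding protein genes, 6 were 2-fold higher. *Gbp7* had 6 and 40 UMIs, a log2 ratio of 2.33, while *Cxcl10*, a chemokine for T cells, had 9 and 159 UMIs, 90 of which came from 1 cell. *Irf1*, an early interferon-gamma target, had 29 and 41 UMIs, a log2 ratio of 0.09.

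Receptors of the pathway had intervals that included 0, and its ligands were rare. The list of interferon ligands, receptors and their regulators had a log2 ratio of 0.17 (-0.04 to 0.38). *Ifnar1* and *Ifnar2*, which form the type I interferon receptor, had log2 ratios of -0.28 and 0.54, and *Ifngr1* and *Ifngr2*, the interferon-gamma receptor chains, 0.31 and 0.07. *Jak1*, the kinase on both receptors, had a log2 ratio of 0.01. *Socs1*, a feedback inhibitor, had 4 and 16 UMIs, a log2 ratio of 1.59 (-0.04 to 3.63). It was the 1 of 6 genes at least 2-fold higher, beside 4.66% of all genes. Over all cells that passed the limits, 21 interferon genes had 37 control UMIs and 116 *Smo* cKO UMIs, with *Ifnb1* at 12 and 48 and *Ifng* at 9 and 45. Endothelial cells held 0 and 1 UMI of *Ifnb1* and of *Ifng*.

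In the lymphatic-like cells several lymphatic genes were higher in *Smo* cKO, as were other endothelial genes. The pan-endothelial list had a log2 ratio of 0.48 (0.36 to 0.60) in these cells, with 18 of 19 genes above 0, and the venous list of 0.91 (0.65 to 1.17). *Ccl21a* (chr4:42772860-42773993, minus strand, GRCm38) stood at 4501 CPM in control (1035 UMIs in 18 of 23 cells) and 13402 CPM in *Smo* cKO (5091 UMIs in 31 of 32 cells), a log2 ratio of 1.57 (1.48 to 1.67). Per cell the median was 28.7 UMIs per 10000 in control (0 to 399) and 164 in *Smo* cKO (0 to 853), so the ranges overlapped. Without shared barcodes the log2 ratio was 1.98. *Ccl21a* has near-identical copies in the mouse genome, so part of its reads may belong to them. *Prox1* stood at 274 CPM in control (63 UMIs) and 313 CPM in *Smo* cKO cells (119 UMIs), a log2 ratio of 0.19 (-0.26 to 0.66) that became 0.51 without shared barcodes.

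Other lymphatic genes lay between these. *Flt4*, the receptor for VEGF-C, had 50 and 159 UMIs, a log2 ratio of 0.94 (0.48 to 1.43). *Reln* had 31 and 93 UMIs, a log2 ratio of 0.86, and *Pdpn*, podoplanin, had 48 and 138 UMIs, a log2 ratio of 0.80. Without shared barcodes *Flt4* was at 0.99 and *Reln* at 1.39 (0.70 to 2.13), the second past 2-fold. *Mmrn1* had a log2 ratio of 0.49 and *Lyve1* of 0.28, the second with an interval from -0.05 to 0.62. With shared barcodes included, all 11 lymphatic genes with enough UMIs had ratios above 0, with a median of 0.80. Of these, 2 were at least 2-fold higher, beside 5.71% of all genes. In the same cells the summed connective genes were lower in *Smo* cKO (3583 and 1648 CPM, a log2 ratio of -1.12). In 1 control cell with a shared barcode, 0.866% of 37974 UMIs were of collagen and other matrix genes, beside a control median of 0.226%. The hematopoietic genes were higher in *Smo* cKO (187 and 1074 CPM, a log2 ratio of 2.52). *S100a8* made up 38.8% of their UMIs, and over all *Smo* cKO endothelial cells 2 cells held 387 of its 421 UMIs. The part of the connective and hematopoietic genes in the lymphatic ratios was not tested.

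The share of cells with lymphatic genes was lower at lower depth. *Prox1* was detected in 17 of 72 control endothelial cells (23.6%, 14.4 to 35.1) and in 32 of 81 *Smo* cKO ones (39.5%, 28.8 to 51.0). The control and *Smo* cKO shares were 0.279% and 1.21% in hematopoietic, 2.79% and 3.99% in connective, and 11.0% and 13.6% in mural cells. After thinning to 2000 UMIs the endothelial counts were 8 of 67 (11.9%) and 15 of 79 (19.0%). At least 3 lymphatic genes were found in 33 of 72 control (45.8%) and 51 of 81 *Smo* cKO cells (63.0%), and in 4.47% and 4.65% of hematopoietic cells. Of these endothelial cells, 20 control and 32 *Smo* cKO cells were lymphatic-like, 5 and 6 blood-vessel-like and 8 and 13 of the third cluster. *Pdpn*, *Fxyd6* and *Thy1* of this list are also genes of connective cells, with *Pdpn* detected in 70.8% and 69.9% of them. In connective cells, whose median depths of 11647 and 14393 UMIs were nearer to those of endothelial cells, the shares with at least 3 lymphatic genes were 25.3% and 32.7%. At the depth of 2000 UMIs those with at least 3 lymphatic genes were 26.9% and 40.5% of endothelial cells and 1.08% and 1.20% of connective cells. With 1 library for each genotype, a difference in the number of lymphatic cells was not tested.

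Some venous and leukocyte adhesion genes, both selectins and *Ackr1* among them, were lower in *Smo* cKO blood-vessel-like cells. *Selp* (chr1:164115264-164150026, plus strand, GRCm38) stood at 289 CPM in control (139 UMIs in 15 of 36 cells) and 127 CPM in *Smo* cKO (52 UMIs in 7 of 32 cells), a log2 ratio of -1.18 (-1.67 to -0.71). *Sele*, the E-selectin of inflamed vessels, had 35 and 5 UMIs, a log2 ratio of -2.57 (-4.28 to -1.21), and *Ackr1* had 54 and 16 UMIs, a log2 ratio of -1.52. Without shared barcodes these were -1.08, -2.47 and -1.41. Of 12 venous and postcapillary genes, 3 were at least 2-fold lower and 0 higher, beside 3.61% and 3.67% of all genes, with a median of -0.49. Of 12 leukocyte adhesion and chemokine genes, a list that shares these 3, 3 were 2-fold lower, 0 were 2-fold higher and 5 were above 0, and the summed log2 ratio was -0.12 (-0.26 to 0.02). *Icam1*, an integrin ligand on activated endothelium, had a log2 ratio of -0.70, *Vcam1* of -0.52 with an interval from -1.13 to 0.07, and *Icam2* of 0.69. In the same cells the erythroid genes were higher in *Smo* cKO (1603 and 10870 CPM, a log2 ratio of 2.76). So were the hematopoietic genes, with a log2 ratio of 0.71 (0.26 to 1.17). Over all endothelial cells, 2 *Smo* cKO cells held 2885 of the 3134 *Smo* cKO UMIs of *Hbb-bs*, the leading erythroid gene. The part of the erythroid and hematopoietic genes in the venous and adhesion values was not tested.

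Within the 24 venous-like cells, 16 of them control and 8 *Smo* cKO, the values varied by gene. Their median depth was 8319.5 UMIs in control and 3881.5 UMIs in *Smo* cKO. Mural genes were lower in these *Smo* cKO cells (709 and 170 CPM, a log2 ratio of -2.06, -3.31 to -1.02). The part of depth and of mural genes in the values below was not tested. *Selp* stood at 938 CPM in control and 958 CPM in *Smo* cKO cells, a log2 ratio of 0.03 (-0.49 to 0.53). Per cell its median was 10.2 UMIs per 10000 in control (0 to 33.8) and 3.8 in *Smo* cKO (0 to 21.1), with no UMI in 4 control and 3 *Smo* cKO cells. *Ackr1* had a log2 ratio of -0.31 (-1.28 to 0.57), and *Sele*, with 30 and 4 UMIs, had -1.38 (-3.35 to 0.13). The venous list summed to a log2 ratio of 0.10 (-0.11 to 0.31) in these cells, and the leukocyte adhesion and chemokine list to -0.46 (-0.74 to -0.19), with 4 of its 10 genes 2-fold lower and 3 above 0, beside 8.98% of 1292 genes 2-fold lower and 6.42% higher in these few cells. The cells were separated by these genes, so their numbers are not compared between libraries. A lower level per venous cell and fewer venous cells cannot be told apart in the summed counts.

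*Lrg1*, *Icam1* and *Klf4* had ratios below 0 in blood-vessel-like and above 0 in lymphatic-like cells. They are single genes and not a list. Of 7 leukocyte adhesion and chemokine genes in lymphatic-like cells, 5 were above 0, 1 was 2-fold higher and 1 was 2-fold lower. Of 6 venous and postcapillary genes there, 5 were above 0, 1 was 2-fold higher and 0 were 2-fold lower. Over all genes 5.71% were 2-fold higher and 3.78% lower. *Lrg1*, a secreted glycoprotein of activated venules, had 132 and 59 UMIs in blood-vessel-like cells, a log2 ratio of -0.93 (-1.39 to -0.47), and 29 and 148 UMIs in lymphatic-like cells, a log2 ratio of 1.63 (1.05 to 2.25). *Icam1* had a log2 ratio of 0.92 (0.35 to 1.52) in lymphatic-like cells, with 34 and 106 UMIs, and *Klf4*, a transcription factor induced by flow, had -0.83 in blood-vessel-like and 1.07 in lymphatic-like cells. Without shared barcodes *Lrg1* was at -0.81 and 2.38, and *Icam1* at -0.90 and 1.47. *Selp* and *Ackr1* had too few UMIs in lymphatic-like cells (10 and 0) to compare. The difference between clusters was not tested.

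**Figure D5:**
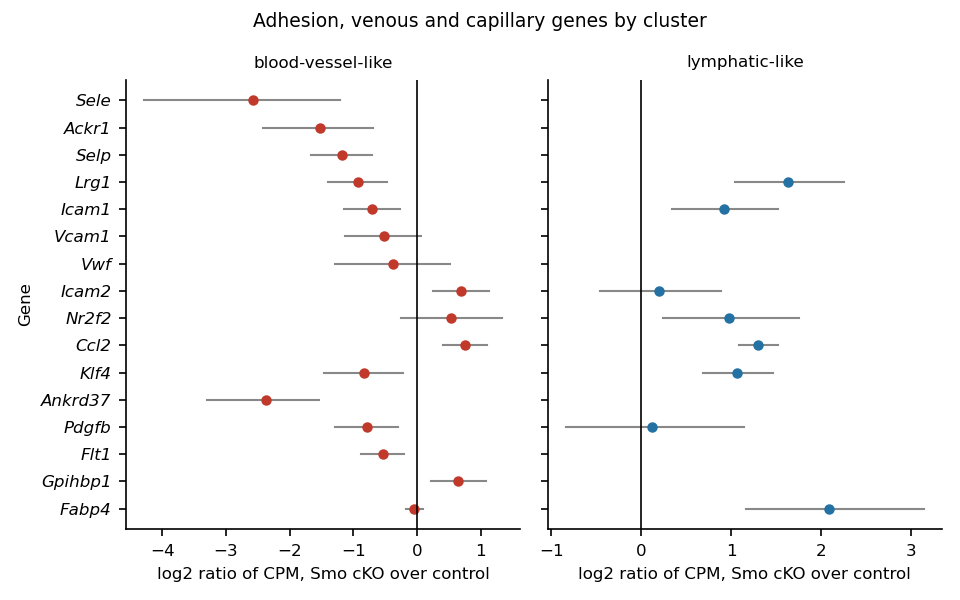
Log2 ratio of CPM, *Smo* cKO over control, for adhesion, venous and capillary genes in blood-vessel-like (left) and lymphatic-like cells (right), for genes with UMIs in both libraries and at least 20 in the cluster; points are ratios and lines exact 95% intervals for counting error. *Sele*, *Ackr1*, *Selp* and *Lrg1* lie below 0 on the left, and *Lrg1* and *Icam1* lie above 0 on the right.

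Chemokine transcripts need care because the callus is full of them. *Ccl2*, which recruits monocytes, went from 489 to 1427 CPM in endothelial cells, but in blood-vessel-like cells its log2 ratio was 0.75 and became -0.26 (-0.72 to 0.20) without shared barcodes. It stood at 1074 CPM over all control and 1796 CPM over all *Smo* cKO cells, and was found in 41.3% and 60.8% of hematopoietic cells. In lymphatic-like cells it had 226 and 919 UMIs, a log2 ratio of 1.30 (1.09 to 1.52), which was 2.23 (1.98 to 2.50) without shared barcodes. The part of free *Ccl2* RNA in either cluster was not tested.

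The summed capillary and sprouting genes of the blood-vessel-like cells had ratios near 0, with some single genes apart. The capillary list had a log2 ratio of 0.03 (-0.08 to 0.13) and the tip and angiogenic list of -0.02 (-0.17 to 0.13), with 0 of 8 and 0 of 13 genes past 2-fold in either direction. *Fabp4* stood at 2098 and 2037 CPM, a log2 ratio of -0.04. *Flt1* was lower, at 411 and 284 CPM, a log2 ratio of -0.54 (-0.88 to -0.20), as was *Pdgfb*, the growth factor that recruits pericytes, with -0.79 (-1.29 to -0.30). Without shared barcodes these were -0.74 and -1.34 (-2.05 to -0.67), the second past 2-fold. *Gpihbp1* was higher, with 0.65 (0.21 to 1.09). The cycling genes of the blood-vessel-like cells had a log2 ratio of 0.10 (-0.06 to 0.26), and those of the lymphatic-like cells of -0.51 (-0.66 to -0.36), where 0 of 15 genes passed 2-fold.

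In blood-vessel-like cells a few BMP targets were higher and a few hypoxia genes lower in *Smo* cKO, while most genes of both lists did not reach 2-fold. *Id1*, an inhibitor of differentiation induced by BMP in endothelium, had 13 and 45 UMIs, a log2 ratio of 2.03 (1.11 to 3.04), and *Id3* had 106 and 189 UMIs, a log2 ratio of 1.07 (0.72 to 1.43). They were the 2 of 10 genes of the BMP list past 2-fold, beside 3.67% of all genes, and the list's median was 0.04 with 5 genes above 0. *Ankrd37*, a hypoxia-induced gene, had 85 and 14 UMIs, a log2 ratio of -2.37 (-3.30 to -1.54), which was -2.74 without shared barcodes. *Slc2a1*, the glucose transporter GLUT1, had 33 and 10 UMIs, and *Bnip3*, a mitophagy receptor, 28 and 10, with log2 ratios of -1.49 and -1.25. These 3 of 11 hypoxia and glycolysis genes were 2-fold lower, beside 3.61% of all genes, while the summed list, led by *Ldha*, had a log2 ratio of -0.14 and a median of -0.12. The erythroid genes were higher in the same *Smo* cKO cells, with a log2 ratio of 2.76 (2.65 to 2.87). Over all endothelial cells, 2 *Smo* cKO cells held 2885 of the 3134 *Smo* cKO UMIs of *Hbb-bs*, the leading erythroid gene. The part of the erythroid genes in the BMP and hypoxia values was not tested.

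Among the genes with the lowest ratios at 50 CPM or more in a library, several were mainly genes of blood-vessel-like cells. *Nt5e*, the surface enzyme CD73 that makes adenosine, had 52 and 19 UMIs over all endothelial cells, a log2 ratio of -1.86 (-2.70 to -1.08), and within blood-vessel-like cells it had 42 and 15 UMIs, a log2 ratio of -1.25. *Csf2rb*, the shared chain of the receptors for GM-CSF and IL-3, had 76 and 39 UMIs, a log2 ratio of -1.37 that was -1.49 within blood-vessel-like cells. *Slc7a11*, the cystine transporter, had 84 and 42 UMIs, a log2 ratio of -1.41 that was -1.74 there. *Mecom*, a transcription factor with an arterial role, had 76 and 43 UMIs, a log2 ratio of -1.23 that was -0.85 within blood-vessel-like cells, and 0 UMIs in lymphatic-like cells. *Igfbp3* had 576 and 328 UMIs, a log2 ratio of -1.22 over all endothelial cells but -0.65 (-0.85 to -0.44) within blood-vessel-like cells. The highest ratios, besides the interferon genes, belonged largely to genes of neutrophils and muscle (*Retnlg*, *S100a8*, *S100a9*, *Acta1*, *Des*).

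Genes of other cell types were themselves unequal between the libraries' endothelial cells. Erythroid genes, led by *Hbb-bs*, stood at 965 and 6172 CPM, a log2 ratio of 2.68, and 2885 of the 3134 *Hbb-bs* UMIs in *Smo* cKO cells came from 2 cells. Hematopoietic genes other than *Ptprc*, which the selection held at 0, stood at 152 and 749 CPM, and 387 of 421 *S100a8* UMIs in *Smo* cKO cells came from 2 cells. Connective genes, led by *Col1a2*, stood at 7325 and 12445 CPM, a log2 ratio of 0.76, with 8 of 11 intervals above 0. Muscle genes stood at 31.9 and 260 CPM, led by *Des*, of which 86 of 102 *Smo* cKO UMIs came from 1 cell. Mural genes, led by *Acta2*, stood at 505 and 1055 CPM. By cluster the mural log2 ratio was -0.28 in blood-vessel-like, 1.19 in lymphatic-like and 1.54 in third-cluster cells. *Ttn*, *Ccl5* and *Retnlg* were among the genes with the highest ratios and each came mainly from 1 or 2 *Smo* cKO cells, with 72 of 77 *Ttn* UMIs and 79 of 82 *Ccl5* UMIs in 1 cell. With cells that carried genes of other types left out, 62 control and 60 *Smo* cKO cells remained and the interferon list had a log2 ratio of 1.76. The excess of genes 2-fold higher over genes 2-fold lower, 369 against 153 in all cells, was 242 against 210 in those that remained.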

How the data were processed

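The authors mapped reads to mm10 and counted UMIs per gene and barcode with Cell Ranger 3.0.2, and the deposited matrices hold these raw counts (31054 features, *TdTomato* among them) for 1 library per genotype. Their upper limit of 2000 genes per cell was used here only as an alternative. The chosen cells and gene lists were set with earlier results of these data known. UMIs were summed per library, expressed as CPM and compared as log2 ratios with exact Poisson intervals (scipy 1.17.1), and shares carry Clopper-Pearson 95% intervals. Genes were named if listed, or among the 15 highest or lowest ratios at 50 CPM or more. Cells were grouped by Louvain clustering with igraph 0.11.9 and scikit-learn 1.9.0 (2000 variable genes, 20 components, 20 neighbors, resolution 0.4). The interferon-stimulated, interferon-gamma, class I and proliferation lists were kept out of the variable genes. The doublet caller was Scrublet in scanpy 1.11.5. Clusters were named only from listed markers. No replicate exists, so no test was run. The steps were run on simulated counts with Poisson error only, so the intervals were not tested on counts held unevenly by cells. Alternatives covered the gene, UMI and purity limits, thinning, averaging, gene minimum and shared barcodes. One listed interferon-stimulated gene counts in the sums but is not reported here by itself.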

Additional observations from a re-analysis of the deposited data

How the results depend on the processing

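No paired analysis was possible because each genotype has 1 library, and leaving out a replicate was likewise not possible. The log2 ratio of the interferon list kept its sign in the alternatives run, while without shared barcodes *Ccl2* in blood-vessel-like cells changed sign (to an interval that included 0) and the third cluster's shares changed order (18.2% in control, 16.9% in *Smo* cKO). Of the shares of cells, those with at most 2000 genes were 0.403% in control and 0.622% in *Smo* cKO, those with at least 6 UMIs of the selecting genes 0.497% and 0.600%, and without cells carrying genes of other types 0.616% and 0.631%. The interferon list's log2 ratio of 1.45 was 1.64 in cells of at most 2000 genes, 1.76 without cells carrying genes of other types, 1.59 as a mean of per-cell CPM and 1.63 after thinning to 2000 UMIs. In alternatives chosen after seeing the data it was 1.57 without shared barcodes, 1.73 in lymphatic-like cells alone, 1.68 without the third cluster, 1.36 without the cell richest in these UMIs and 2.39 without *Ifitm3*. Counts of genes 2-fold higher and lower (369 and 153) were 79 and 55 in cells of at most 2000 genes, 109 and 83 after thinning, 81 and 20 at 50 CPM and 1168 and 731 with no minimum, and 242 and 210 without cells carrying genes of other types. Thinning gave *Prox1* shares of 11.9% and 19.0% and shares with at least 3 lymphatic genes of 26.9% and 40.5%. Cluster shares stayed within their counting intervals in all 6 settings. The doublet caller marked no endothelial cell, so that alternative left the endothelial values as they were, and 4 other cells left the total behind the *Smo* cKO share. With 153 cells, genes under 20 UMIs could not be compared, and counting intervals hold no animal-to-animal spread.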

Other observations

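Basement membrane genes, led by *Sparc*, had a log2 ratio of -0.02 (-0.06 to 0.03) over all endothelial cells, with 0 of 13 genes past 2-fold in either direction. The ratio was 0.01 (-0.05 to 0.07) in blood-vessel-like, -0.26 (-0.39 to -0.13) in lymphatic-like and 0.18 (0.10 to 0.26) in third-cluster cells. Notch pathway genes, led by *Hes1*, had a log2 ratio of 0.28 (0.07 to 0.49), with 1 of 9 genes 2-fold higher, beside 4.66% of all genes. Genes of the VEGF and angiopoietin pathways, led by *Nrp2*, the semaphorin and VEGF-C co-receptor, had a log2 ratio of -0.03 (-0.13 to 0.08), with 0 of 10 past 2-fold. By cluster their log2 ratio was -0.22 (-0.38 to -0.06) in blood-vessel-like, 0.42 (0.25 to 0.60) in lymphatic-like and -0.07 (-0.37 to 0.23) in third-cluster cells. Immediate early genes, led by *Klf6*, had a log2 ratio of 0.42 (0.35 to 0.50) over all endothelial cells, with 14 of 15 genes above 0 and 2 at least 2-fold higher, beside 4.66% of all genes. By cluster it was -0.09 (-0.22 to 0.03) in blood-vessel-like, 0.53 (0.41 to 0.65) in lymphatic-like and 0.78 (0.61 to 0.95) in third-cluster cells, with 5 of 14 genes 2-fold higher in the last, beside 7.74% of all genes there, and the difference between the clusters was not tested. In third-cluster cells the muscle, erythroid and hematopoietic lists were also higher, with log2 ratios of 7.09, 5.10 and 3.03. The muscle list had 1 and 285 UMIs there, and over all endothelial cells 1 *Smo* cKO cell held 86 of 102 *Des* UMIs and 2 held 2885 of 3134 *Hbb-bs* UMIs and 387 of 421 *S100a8* UMIs. Their part in the immediate early values was not tested. Genes tied to a shift from endothelial to mesenchymal state, led by *Vim*, had a log2 ratio of 0.06 (0.02 to 0.11) over all endothelial cells, 0.18 in blood-vessel-like, -0.31 in lymphatic-like and 0.36 in third-cluster cells. *Vim* alone gave 89.3% of the UMIs in blood-vessel-like and 68.5% in lymphatic-like cells, and the median over genes was 0.20 and -0.00 there.

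*Ccl20*, a chemokine for cells with the receptor CCR6, had 0 UMIs in control and 65 UMIs in *Smo* cKO endothelial cells, but 62 of these 65 came from 2 of the 5 cells that held any.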
